A study of Mus musculus with 12 samples.

Results

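Total RNA of adult mouse hearts without Rpl3l was compared with that of wild-type hearts. The members are the 6 Input libraries of a study of 12, and the other 6, made from RNA bound to ribosomes, enter only 1 alternative fit of all 12. The wild-type group (WT) and the Rpl3l-/- group (KO) held 3 libraries each, described by the submitters as biological triplicates. Beyond adult the labels give no age, and neither strain, sex nor what was deleted. They also do not say which cells carry the tag used for the ribosome pull-down, or whether the Input hearts carry it. RNA was purified from heart homogenates with TRIzol, enriched for poly(A) with oligo(dT) beads, made into barcoded direct cDNA libraries and read on a nanopore sequencer. The p-values below measure the spread between these libraries only.

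Rpl3 encodes a core protein of the large ribosomal subunit that lies near the site where peptide bonds form. Rpl3l encodes a paralog made almost only in skeletal and heart muscle, where it can take the place of Rpl3 in the ribosome. Immediate early genes, which also enter the results, encode transcription factors and regulators that cells switch on within minutes of a stimulus, before any new protein is needed, and their mRNAs are short-lived. In the heart, stretch, hormones, loss of blood flow and tissue handling are all known to induce them.

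The WT libraries held 443177, 425571 and 356705 counts and the KO libraries 291040, 289594 and 169359, so every KO library was shallower than every WT library. Levels are given as CPM, counts scaled to the library total with TMM factors, and the smallest level taken as detected, 3 counts, equals 6.77 CPM in the deepest and 17.7 CPM in the shallowest library, so differences near that level were not detectable at this depth. Of 55401 listed genes, 15202 had a count in these libraries and 4350 passed the count filter. Correlations between libraries over the tested genes ran from 0.865 to 0.943, with KO replicate 3, the shallowest, in the lowest. Of 11 listed markers of ventricular muscle, 10 had counts and 1 was at 0 in all 6 libraries. Their summed level was 63074 to 71900 CPM in WT. In KO it was 62475 to 67247 CPM in replicates 1 and 2 and 59074 CPM in replicate 3. RNA of other organs was present in some WT libraries. The 16 hepatocyte markers held 708 counts in WT replicate 1, 35 and 8 in WT replicates 2 and 3, and 3 to 5 in KO. The 15 airway and alveolar markers held 1664 counts in WT replicate 3, 200 in WT replicate 1 and 22 in WT replicate 2, against 4 to 21 in KO. The airway secretory gene Scgb1a1 alone gave 963 of these in WT replicate 3. The alveolar genes Sftpb and Sftpc were at 0 in all 6 libraries. Other alveolar genes had few counts: Sftpa1 1, 1 and 2 in WT replicates 1 to 3, Sftpd 2 in WT replicate 3 and Ager 2 in KO replicate 1. Globin genes took 13.8% of counts in WT replicate 3 and 1.74% to 5.70% in the other libraries. The part of this RNA in the results was not tested, and results are given without these libraries where that changes them.

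**Figure D1:**
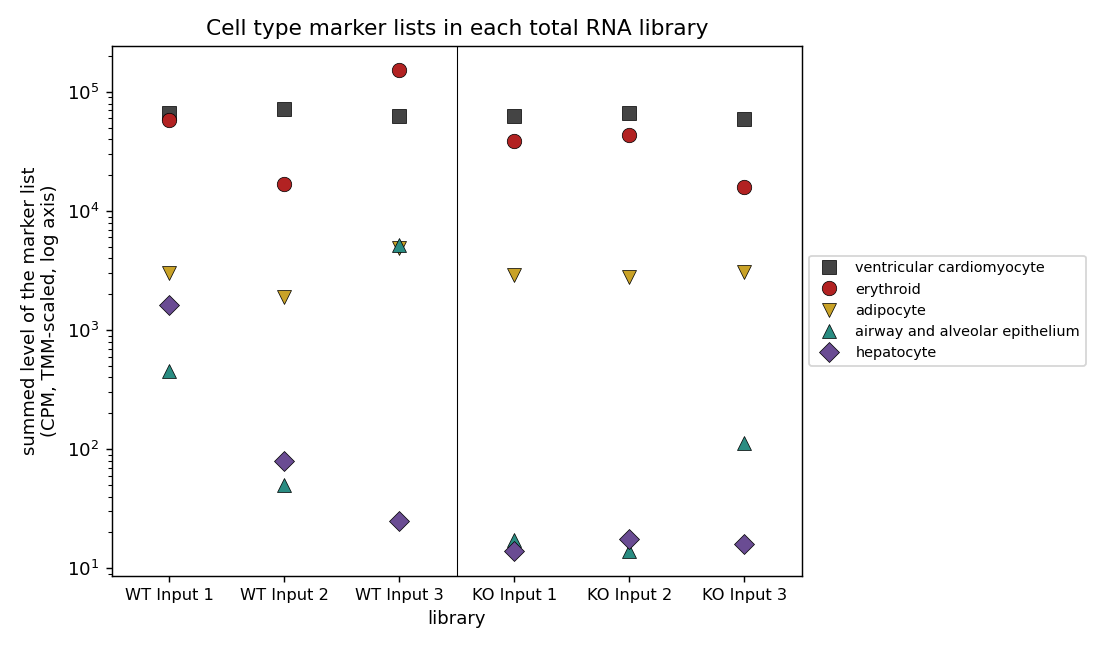
Summed CPM of 5 cell type marker lists (y axis, log scale) in each of the 6 libraries (x axis), 1 symbol per list. Ventricular markers are level across libraries, hepatocyte markers stand out in WT replicate 1 (1619 CPM) and airway markers in WT replicate 3 (5153 CPM).

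The comparison asks which transcripts of the whole heart differ when Rpl3l is missing. Few did. Rpl3l fell, its paralog Rpl3 rose, and the other 8 genes past the threshold, all higher in KO, were 4 immediate early transcription regulators (Egr1, Nr4a1, Junb and Ier2), the endothelial early-response gene Apold1, the kinase Sgk1 and the matricellular genes Ccn1 and Ccn2. With edgeR's quasi-likelihood test and an adjusted p under 0.05, 9 of the 4350 genes were higher in KO (0.207%) and 1 was lower (0.023%), 10 in all (0.23%). At an unadjusted p under 0.05 there were 319 genes, 171 higher and 148 lower. The groups did not overlap for 303 genes with KO on top (6.97%) and for 256 with KO beneath (5.89%), and list counts below are read against these shares. The median log2 fold change of all tested genes was 0.00, 90 in 100 genes lay between -0.64 and 0.63, and 106 genes exceeded 1 in size. Without WT replicate 1, the library with the hepatocyte RNA, 1 gene passed, Rpl3l. Without WT replicate 2 there were 20, 8 higher and 12 lower, and without KO replicate 2 there were 6.

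**Figure D2:**
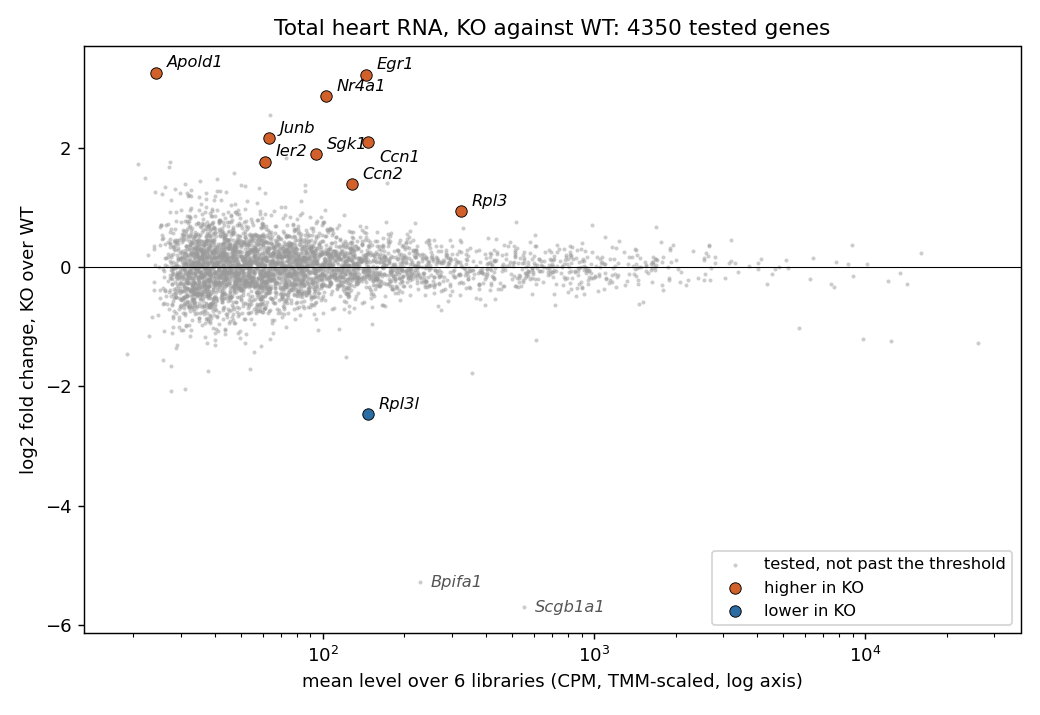
Log2 fold change of KO over WT (y axis) against mean level in CPM (x axis, log scale) for the 4350 tested genes, with the 10 genes past the threshold coloured and named. The 2 airway genes Scgb1a1 and Bpifa1 have the lowest values of all, -5.69 and -5.28, without passing.

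The targeted gene Rpl3l (ENSMUSG00000002500.15, chromosome 17, 24727820 to 24736143, build GRCm38) stood at 204, 285 and 257 CPM in WT replicates 1 to 3 and at 62.2, 24.5 and 48.0 CPM in KO. The groups lay far apart, and the KO libraries were not at 0, with 18, 7 and 9 counts against 89, 125 and 83. Rpl3l fell 5.52-fold, or -2.46 on the log2 scale (SE 0.28, adjusted p 0.000251), and was the 1 gene that passed in all 18 alternative settings. A count per gene does not show which exons the remaining reads cover. Rpl3 (ENSMUSG00000060036.14, chromosome 15, 80077791 to 80091868) stood at 201, 232 and 232 CPM in WT and 456, 403 and 416 CPM in KO, with little spread in either group. It rose 1.92-fold, or 0.94 on the log2 scale (SE 0.17, adjusted p 0.0216). That call ended without WT replicate 1 (0.317), KO replicate 1 (0.0534) or KO replicate 2 (0.0997), while the log2 fold change stayed between 0.78 and 1.01 over all alternatives.

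Because the proteins fill the same place, their transcripts were also added up. The sum of Rpl3 and Rpl3l was 405, 517 and 489 CPM in WT and 518, 427 and 464 CPM in KO, so the groups overlapped throughout. The means were 470.4 ± 58.4 and 469.9 ± 45.6 CPM (SD, n = 3 each), a difference of -0.50 CPM (2-sided exact permutation test, p 1.00, with 0.10 the smallest that 3 against 3 allow). Rpl3l made up 50.3%, 55.1% and 52.5% of that sum in WT and 12.0%, 5.74% and 10.3% in KO. The longest coding transcripts of both genes are close in length, 1351 bases for Rpl3 and 1375 for Rpl3l. They are 75.3% identical over 1200 aligned positions, with no identical run longer than 22 bases, and what the counting did with reads that fit both was not stated. The annotated Rpl3 locus overlaps Syngr1, which held 329 counts in these libraries.

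**Figure D3:**
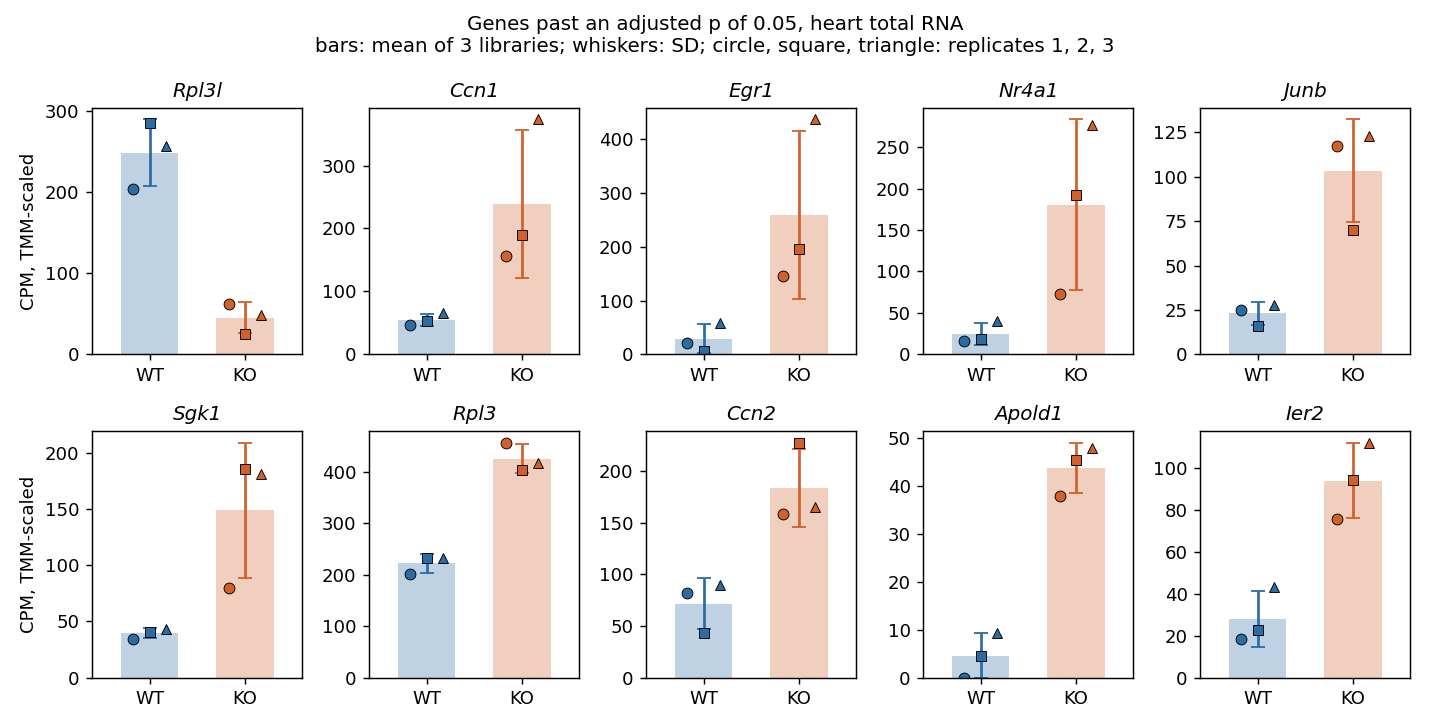
Level in CPM (y axis, from 0) of each of the 10 genes past the threshold in WT and KO, with bars for the mean of 3 libraries, whiskers for the SD and 1 symbol per replicate number. In every panel the WT and KO libraries are apart, and KO replicate 3 is the highest of the 6 for Ccn1, Egr1, Nr4a1, Junb, Apold1 and Ier2.

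The RefSeq promoter table (GRCm38.p6) held 1 start site each for the induced genes Nr4a1, Junb, Ccn1 and Apold1. It held several for Rpl3l and Sgk1, and none for Ier2, Ccn2 and Rpl3. Egr1 was left out of this search, so whether the table holds a start site for it is not reported. The 250 bases before the start site are shown for Nr4a1, Junb and Ccn1, which moved together, 5′ to 3′ on the gene's strand. Apold1 is left out because an annotated exon covers its window. Capitals mark TGACG, the core of the cyclic AMP response element, or CGTCA, its other strand. The windows are chr15:101266596-101266845 (plus strand), chr8:84978749-84978998 and chr3:145649986-145650235 (both minus strand), and no annotated exon overlaps them.
Nr4a1: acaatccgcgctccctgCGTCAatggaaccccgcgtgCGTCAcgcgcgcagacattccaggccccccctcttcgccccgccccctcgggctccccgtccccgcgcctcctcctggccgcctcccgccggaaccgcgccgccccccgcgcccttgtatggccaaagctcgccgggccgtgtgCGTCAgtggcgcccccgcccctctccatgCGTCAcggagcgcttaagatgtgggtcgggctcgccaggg
Junb: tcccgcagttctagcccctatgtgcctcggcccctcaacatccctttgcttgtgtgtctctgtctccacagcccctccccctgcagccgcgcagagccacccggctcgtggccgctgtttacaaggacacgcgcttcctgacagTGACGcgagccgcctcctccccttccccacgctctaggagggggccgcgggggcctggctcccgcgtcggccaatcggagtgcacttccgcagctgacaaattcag
Ccn1: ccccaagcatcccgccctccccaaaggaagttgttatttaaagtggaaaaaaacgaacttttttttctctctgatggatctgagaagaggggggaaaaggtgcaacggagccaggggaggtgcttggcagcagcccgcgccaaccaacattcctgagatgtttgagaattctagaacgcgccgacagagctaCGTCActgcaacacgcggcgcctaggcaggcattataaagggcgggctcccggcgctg

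Nr4a1 holds the core at 4 places, starting 233, 213, 69 and 40 bases before the start site, Junb at 1 (106 bases before) and Ccn1 at 1 (58 bases before). Of all 32851 windows of this length in the table, 17.8% hold TGACG on either strand and 0.137% hold it 4 times or more. The whole element TGACGTCA, which contains the core on both strands, is in none of the 3 windows (1.55% of all). The same holds for the AP-1 motif TGANTCA (6.75%) and the CArG box (1.47%), and the TEAD motif GGAATG is in those of Nr4a1 and Ccn1 (12.6%). These matches describe letters in a window and do not show binding.

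Immediate early transcription regulators were the largest group among the called genes. Of the 28 on that list, chosen with earlier results of these data known, 13 were tested. Of these 4 rose, against 0.207% of all tested genes, and none fell. The median log2 fold change was 0.70 against 0.00 over all tested genes. Egr1 (ENSMUSG00000038418.7), a zinc-finger transcription factor gene, stood at 20.6, 6.83 and 58.8 CPM in WT and 145, 196 and 438 CPM in KO. WT replicate 3 was the highest WT library and KO replicate 3 the highest of all, and the groups did not overlap. Egr1 rose 9.33-fold, or 3.22 on the log2 scale (SE 0.47, adjusted p 0.00289). The orphan nuclear receptor gene Nr4a1 stood at 16.0, 18.2 and 40.3 CPM in WT and 72.5, 193 and 278 CPM in KO, again highest in the third library of each group. It rose 7.28-fold (2.86, SE 0.44, adjusted p 0.00361). Junb, which encodes a subunit of the AP-1 factor, stood at 25.2, 15.9 and 27.9 CPM in WT and 117, 70.0 and 123 CPM in KO, and rose 4.45-fold (2.15, SE 0.35, adjusted p 0.00788). The Junb locus overlaps Prdx2, a peroxiredoxin gene with 1047 counts here that had a log2 fold change of -0.18. The nuclear regulator gene Ier2 stood at 18.3, 22.8 and 43.4 CPM in WT and 76.0, 94.6 and 112 CPM in KO, a rise of 3.40-fold (1.76, SE 0.36, adjusted p 0.0445). Its call was lost without WT replicate 1 (0.328), WT replicate 2 (0.123), KO replicate 2 (0.172) or KO replicate 3 (0.185).

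Other members of the list did not pass. The groups were apart, with KO on top, for 7 of the 13, against 6.97% of all tested genes: the 4 above and Fos, Jun and Klf2. Fos, the partner of Jun proteins in AP-1, stood at 13.7, 4.56 and 37.2 CPM in WT and 51.8, 56.0 and 219 CPM in KO (log2 fold change 2.54, SE 0.60, adjusted p 0.124), so that 1 KO library carried much of the difference. Jun (0.70) and Klf2, a flow-responsive endothelial factor (1.00), had adjusted p 0.630 and 0.463. Klf4, Klf6, Srf, Jund and Ier5 lay between 0.29 and 0.57 with overlapping groups, and Bhlhe40 at -0.18. Among the 15 members too low to test, Egr3 had 1, 0 and 0 counts in WT and 3, 4 and 9 in KO, and Atf3 2, 3 and 2 against 2, 11 and 3. Klf10 went the other way, with 17, 11 and 10 counts in WT and 6, 4 and 2 in the shallower KO libraries. Scaled for depth it stood at 38.9, 25.1 and 31.0 CPM in WT and 20.7, 14.0 and 10.7 CPM in KO, so the groups were apart.

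Genes that limit the early response, by dephosphorylating kinases or by mRNA decay, had a median log2 fold change of 0.46 over 19 tested of 36. Of these 1 rose, against 0.207% of all tested genes, and none fell. In all KO libraries 5 lay above WT, against 6.97% of all tested genes. Apold1, an early-response gene of endothelial cells, had 0, 2 and 3 counts in WT (0, 4.56 and 9.29 CPM) and 38.0, 45.5 and 48.0 CPM in KO. It rose (3.26, SE 0.66, adjusted p 0.0445), from WT levels near the detection limit, and lost its call without any 1 of the 6 libraries (0.0589 to 0.373). Zfp36, whose protein binds AU-rich mRNAs for decay, stood at 29.7, 22.8 and 24.8 CPM in WT and 58.7, 77.0 and 139 CPM in KO without passing (1.75, SE 0.38, adjusted p 0.0704). The antiproliferative gene Btg2 stood at 22.9, 29.6 and 40.3 CPM in WT and 38.0, 102 and 208 CPM in KO (1.83, adjusted p 0.161), with KO replicate 1 inside the WT range. The phosphatase gene Dusp1 (0.87), Ier3 (0.92) and the survival gene Mcl1 (0.36) had groups apart and adjusted p 0.408 to 0.722. The 24 tested endothelial markers had a median of 0.19, and their part in the level of Apold1 was not tested. DESeq2 called Zfp36 and Btg2 and gave no adjusted p for Apold1, which limma-voom did not call (0.466).

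The matricellular genes Ccn1 and Ccn2, whose secreted proteins bind integrins and which YAP and TEAD regulate, both rose. Ccn1 (ENSMUSG00000028195.4) stood at 45.7, 52.4 and 65.0 CPM in WT and 155, 189 and 374 CPM in KO, with KO replicate 3 well above the other KO libraries. It rose 4.29-fold (2.10, SE 0.30, adjusted p 0.00289). Ccn2, also called connective tissue growth factor, stood at 82.3, 43.3 and 89.8 CPM in WT and 159, 228 and 165 CPM in KO. It rose 2.61-fold (1.38, SE 0.27, adjusted p 0.0327), and lost its call without WT replicate 1 (0.186), WT replicate 2 (0.120) or KO replicate 2 (0.237). Of the 12 tested YAP and TEAD targets on a list of 19 these 2 rose, against 0.207% of all tested genes. None fell, and the median was 0.29. The groups were apart for 5 of the 12 with KO on top, against 6.97% of all tested genes, and for none with KO beneath. Besides Ccn1 and Ccn2 they were F3, the gene of tissue factor (1.23), Crim1 (0.88) and Amotl2 (0.86), which did not pass. Log2 fold changes were negative for 5 of the 12. Ankrd1, a target that is also a marker of cardiac stress, stood at 1041, 1146 and 861 CPM in WT and 1271, 728 and 827 CPM in KO (-0.11, adjusted p 0.919), with the groups interleaved.

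Sgk1, a kinase induced by serum and glucocorticoids that acts on ion channels, stood at 34.3, 41.0 and 43.4 CPM in WT and 79.4, 186 and 181 CPM in KO. It rose 3.70-fold (1.89, SE 0.32, adjusted p 0.0109). The call was lost without WT replicate 1 (log2 fold change 1.78, adjusted p 0.186) or KO replicate 2 (1.65, 0.146). The other 9 tested glucocorticoid-responsive genes, of 20 listed, had positive log2 fold changes, against 2161 of all 4350 tested genes. None of these 9 passed, and the list median was 0.35. The largest of these was the clock gene Per1, at 20.6, 36.4 and 6.19 CPM in WT and 34.5, 109 and 37.4 CPM in KO (1.47, SE 0.52, adjusted p 0.468), which overlapped. Tsc22d3, the glucocorticoid-induced leucine zipper, followed at 0.74 (adjusted p 0.502). Of 9 tested clock genes none passed, no groups were apart, and the median was 0.23.

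**Figure D4:**
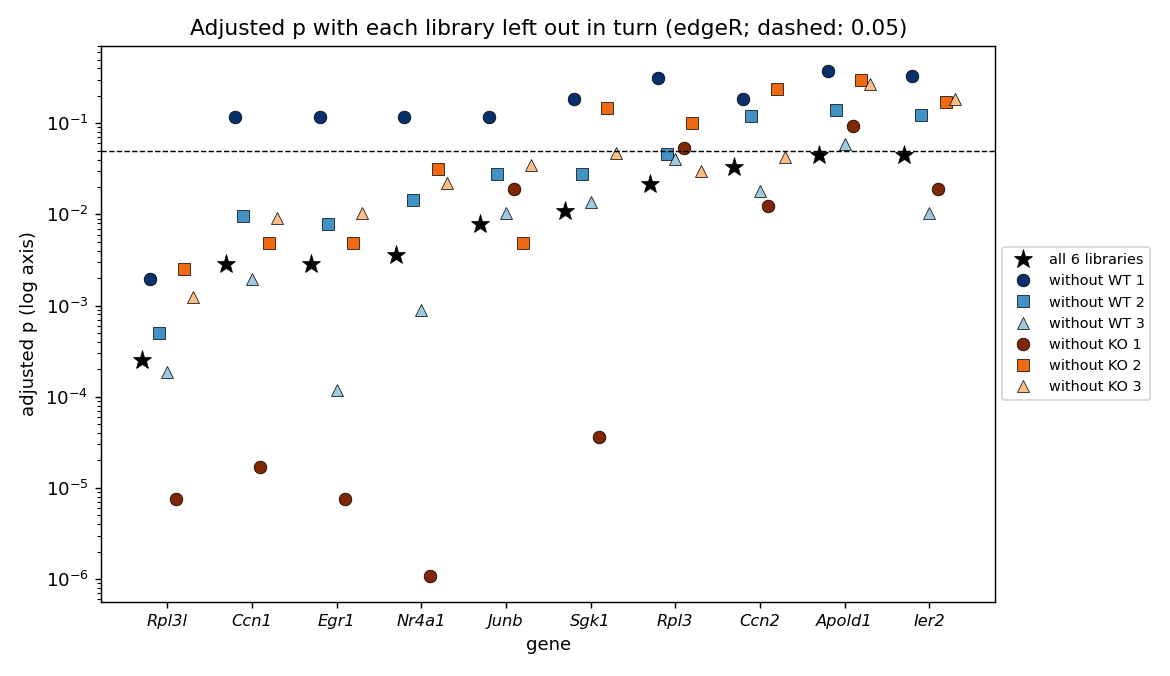
Adjusted p (y axis, log scale) of the 10 genes with all 6 libraries (star) and with each library left out in turn, the dashed line at 0.05. Without WT replicate 1 only Rpl3l stays below the line, and Ccn1, Egr1, Nr4a1 and Junb stand at 0.117.

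The higher genes lost their calls but kept much of their size when WT replicate 1 was left out, with log2 fold changes of 0.86 for Rpl3, 1.50 for Ccn2, 1.52 for Ier2, 1.78 for Sgk1, 1.98 for Ccn1, 2.24 for Junb, 2.62 for Nr4a1, 2.63 for Apold1 and 3.04 for Egr1. With WT replicates 1 and 3, the libraries with the airway RNA, both left out, the KO libraries were compared with WT replicate 2 alone. It is assumed to vary as they do, and no spread among WT libraries enters. The log2 fold changes were then 5.09 for Egr1, 3.21 for Nr4a1, 2.63 for Junb, 2.12 for Ccn1 and 2.07 for Ccn2. WT replicate 2 was the lowest WT library for Egr1, Junb and Ccn2 (6.83, 15.9 and 43.3 CPM), but not for Nr4a1 or Ccn1. The calls of Sgk1 (1.81), Ier2 (1.99), Apold1 (3.13) and Rpl3 (0.86) were lost.

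No other ribosomal protein gene passed. The 32 tested genes of the small subunit had a median of -0.03 and none at an unadjusted p under 0.05, and the 46 of the large subunit, counted without Rpl3 and Rpl3l, a median of -0.05 and 1 such gene, Rpl9. Rpl9 stood at 54.9, 59.2 and 68.1 CPM in WT and 31.1, 38.5 and 37.4 CPM in KO (-0.76, SE 0.34, adjusted p 0.639), and Rpl18 and Rpl21 were also below WT in all KO libraries (-0.36 and -0.20). Rpsa was above it (0.30), and the 3 of 46 lower and 1 of 32 higher lie near the shares of all genes. Of 43 tested translation factors none passed (median -0.03, 3 at an unadjusted p under 0.05). The groups were apart for 1 higher and 4 lower, against 6.97% and 5.89% of all tested genes. Eif4ebp2, a repressor of cap-dependent initiation, stood at 66.3, 47.8 and 46.4 CPM in WT and 16.0 to 27.6 CPM in KO (-1.27, SE 0.40, adjusted p 0.435), while the initiation factor gene Eif3l had 1.04 (adjusted p 0.468). Ribosome biogenesis genes were mostly too low, with 13 of 47 tested and a median of 0.02. In all KO libraries 3 lay below WT, against 5.89% of all tested genes: the nucleolar gene Ncl (-0.47), Rrp1 and Sbds (-0.95). Mitochondrial ribosomal protein genes had a median of -0.02 over 70, with none past the threshold.

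Genes that take up and oxidise fatty acids, the main fuel of the adult heart, did not pass. Of the 35 tested, 7 had groups apart with KO beneath, against 5.89% of all tested genes, and none had KO on top. The list median was -0.10, and 7 genes, all lower, had an unadjusted p under 0.05. Pdk4, the kinase that inhibits pyruvate dehydrogenase, stood at 787, 991 and 774 CPM in WT and 176, 396 and 544 CPM in KO (-1.22, SE 0.26, adjusted p 0.0676). KO replicate 1 was the lowest, and the groups were apart. It passed in 7 of 18 alternatives, such as without KO replicate 3 (0.00906), and with limma-voom. Acot1, a cytosolic acyl-CoA thioesterase gene, stood at 75.5, 93.4 and 86.7 CPM in WT and 38.0, 35.0 and 26.7 CPM in KO (-1.32, SE 0.31, adjusted p 0.124). Hadhb, Hadh, Cpt2, Eci1 and Mlycd lay between -0.24 and -0.65. Markers of fat tissue, which also burns and makes fatty acids, had a summed level of 1890 to 4908 CPM in WT and 2788 to 3069 CPM in KO, and the part of this in the list was not tested. With WT replicates 1 and 3 left out the median of the oxidation list was -0.24.

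None of the 37 listed genes of the mitochondrial chromosome had a count in these libraries, so respiratory chain subunits encoded there were not compared. No nuclear respiratory chain gene passed with edgeR. Those of complex I had a median of 0.00 over 36, with 1 at an unadjusted p under 0.05. Those of complexes II to V had a median of -0.02 over 42, with 2 at that level. Atp5l, a subunit of ATP synthase, had the smallest p of these at 1194, 1305 and 1393 CPM in WT and 2003, 1660 and 2567 CPM in KO (0.68, SE 0.18, adjusted p 0.201), and DESeq2 called it. In complex I, 3 genes lay above WT in all KO libraries and 2 below, Ndufa8 (-0.48) among the latter. In complexes II to V, 3 lay above, Atp5l among them, and 3 below, with Sdhc (-0.45). The shares of all tested genes were 6.97% above and 5.89% below. Glycolysis and TCA cycle genes had a median of -0.06 over 37, with Pkm at -0.42 and Gpi1 at 0.42. Mitochondrial import and carrier genes had a median of -0.09 over 37, with the channel gene Vdac2 at -0.53 and the fusion gene Opa1 at 0.41, and none of either list passed (5 and 1 at an unadjusted p under 0.05).

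No sarcomere gene of 35 passed (median -0.05, 3 at an unadjusted p under 0.05). In all KO libraries 7 lay below WT, against 5.89% of all tested genes, and 1 above, against 6.97%. Myh6, the adult fast myosin of the mouse heart, stood at 8031, 8962 and 7776 CPM in WT and 5961, 7961 and 6420 CPM in KO (-0.28, SE 0.19, adjusted p 0.794), and the groups overlapped. Its slow counterpart Myh7 stood at 339, 371 and 328 CPM in WT and 256, 326 and 16.0 CPM in KO (-0.72, SE 0.40, adjusted p 0.741), where the low value is that of KO replicate 3, without which it was -0.25. Ttn (-0.29), the giant spring protein gene, and Myl2 (-0.10) were below WT in all KO libraries, Tnnt2 (-0.16) overlapped, and none of these passed. The stress-sensing gene Ankrd23 stood at 451, 476 and 430 CPM in WT and 363, 308 and 256 CPM in KO (-0.54, SE 0.18, adjusted p 0.462). Calcium handling and channel genes had a median of 0.09 over 28, with the pump gene Atp2a2 at 0.09 and the release channel gene Ryr2 at 0.01.

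The natriuretic peptide genes, markers of wall stress, did not pass. Nppb stood at 558, 474 and 452 CPM in WT and 774, 662 and 720 CPM in KO (0.54, SE 0.16, adjusted p 0.372), so its groups were apart. Nppa stood at 2525, 2660 and 2942 CPM in WT and 3723, 4676 and 2749 CPM in KO (0.46, SE 0.19, adjusted p 0.619), with KO replicate 3 inside the WT range. Of 17 tested genes of the cardiac stress and fetal programme, 1 rose (Ccn2), against 0.207% of all tested genes. None fell, and the median was 0.25. The skeletal muscle actin gene Acta1 was at -0.59, with KO replicate 3 at 438 CPM and the other 5 libraries at 1475 to 2061 CPM. Among 14 cardiac transcription factors none passed (median 0.01). Tbx20 stood at 61.8, 61.5 and 49.5 CPM in WT and 114, 98.1 and 117 CPM in KO (0.91, SE 0.26, adjusted p 0.304), and Gata4 was below WT in all KO libraries (-0.69, adjusted p 0.619).

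Protein quality control genes did not pass with any of the 3 tools. Of 31 chaperone genes, with a median of 0.01, 6 lay above WT in all KO libraries, against 6.97% of all tested genes. Below WT lay 2, against 5.89%. Those above were Hspb7, Hspb8, Bag3, Hsph1, Dnajb4 and Cct7, and Hspd1, the mitochondrial chaperonin gene, was below (-0.48, adjusted p 0.528). Medians were 0.01 for 36 proteasome genes, 0.03 for 25 lysosome genes and 0.04 for 21 genes of the endoplasmic reticulum. The autophagy receptor gene Sqstm1 had -0.66 (adjusted p 0.410). Of 27 antioxidant and iron genes (median -0.13) the transferrin receptor gene Tfrc was the furthest above, at 59.5, 38.7 and 58.8 CPM in WT and 131, 77.0 and 133 CPM in KO (1.11, SE 0.30, adjusted p 0.216), and the glutathione transferase gene Gsta4 was at -1.01 (adjusted p 0.468).

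Among 49 splicing regulators none passed (median 0.04). Thrap3, a cofactor of splicing and transcription, stood at 59.5, 43.3 and 46.4 CPM in WT and 10.4, 10.5 and 16.0 CPM in KO (-2.04, SE 0.47, adjusted p 0.109), and the groups were wide apart at low counts. It passed in 2 of 15 alternatives. Srsf3, a splicing factor gene, had 0.59 (adjusted p 0.528). Of 8 tested p53 targets none passed (median 0.19).

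**Figure D5:**
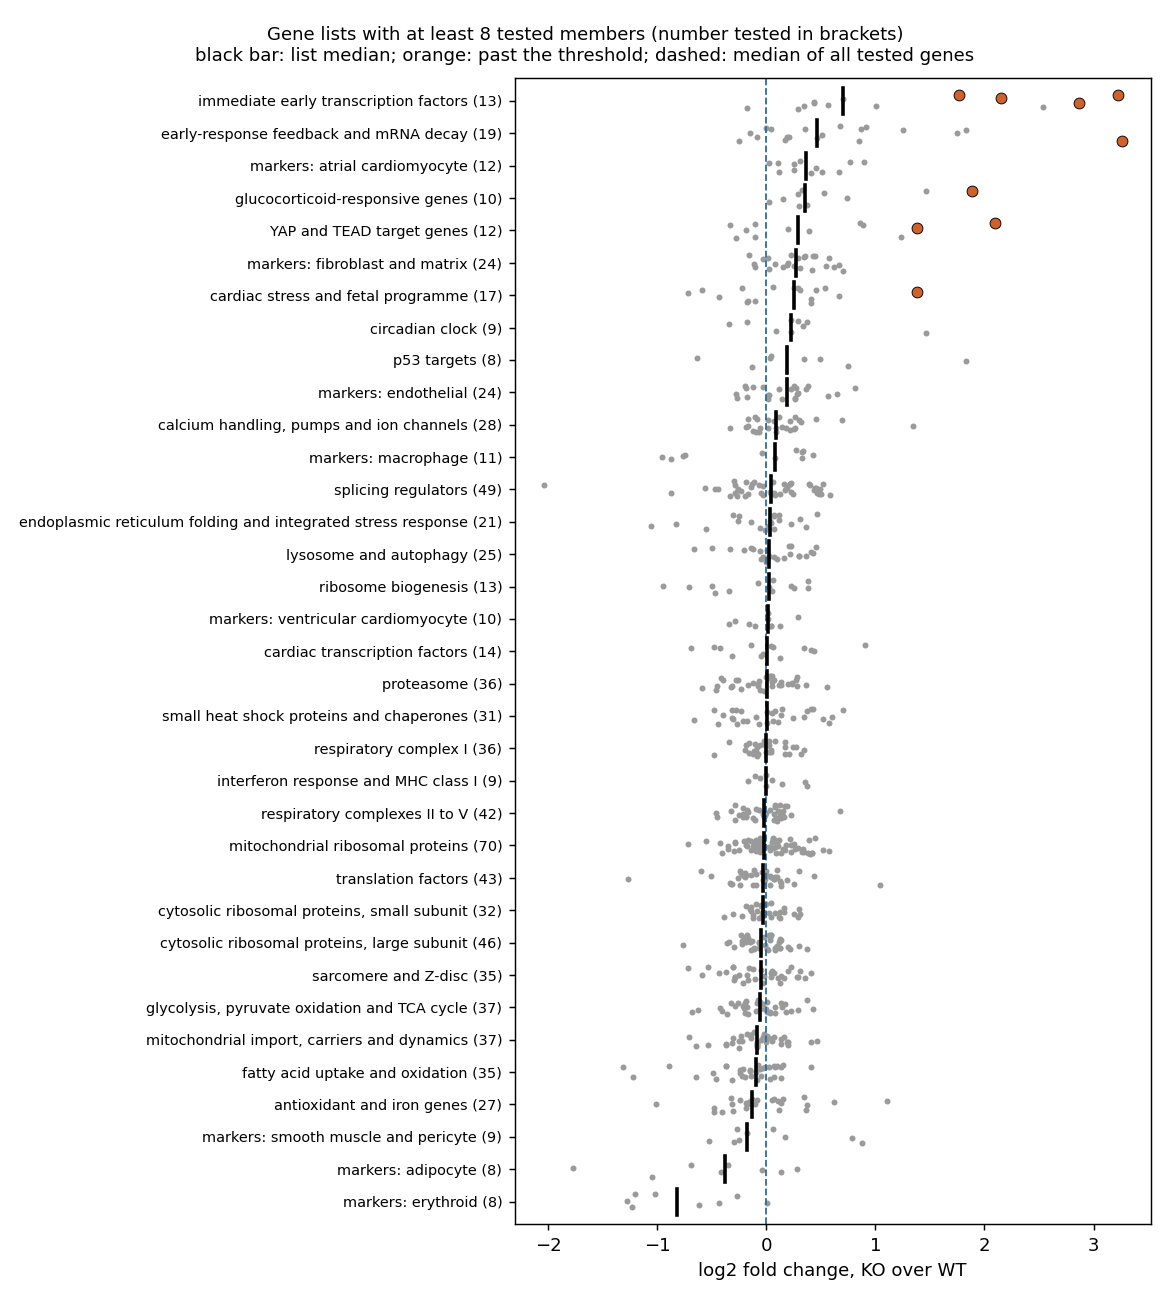
Log2 fold change of KO over WT (x axis) for the tested members of the lists described in the text, each with 8 or more (y axis, number tested in brackets), with the list median as a black bar and genes past the threshold in orange. Called genes are in 5 lists only, and most medians lie within 0.10 of the median of all genes.

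Marker genes show which cell types the libraries sampled, and in whole-heart RNA fewer cells of a type and less RNA per cell cannot be told apart. No member of the ventricular, atrial, fibroblast, endothelial, smooth muscle, macrophage, adipocyte or erythroid lists passed with edgeR, DESeq2 or limma-voom, and 0 to 4 members of each had an unadjusted p under 0.05. Ventricular markers had a median of 0.02 over 10. All 12 tested atrial markers had positive log2 fold changes (median 0.36), against 2161 of all 4350 tested genes. The groups were apart for 3 of the 12, against 6.97% of all tested genes with KO on top: Myl1 (0.67), Bmp10 (0.51) and Clu (0.26). The summed atrial level was 7093, 7339 and 9048 CPM in WT and 9680, 12023 and 8737 CPM in KO, which overlapped. Fibroblast markers had a median of 0.27 over 24, with 20 positive and 4 negative. Endothelial markers had a median of 0.19 over 24, with 17 positive and 7 negative. The groups were apart for 3 endothelial markers with KO on top, against 6.97% of all tested genes: Rbp7 (0.82), Rgcc (0.64) and Timp4 (0.36). Smooth muscle markers had a median of -0.17 over 9 and macrophage markers 0.08 over 11, where Cd74, the chaperone of MHC class II, stood at 197, 137 and 272 CPM in WT and 93.2, 126 and 85.4 CPM in KO (-0.95, SE 0.26, adjusted p 0.270). Erythroid markers (-0.82 over 8) and adipocyte markers (-0.38 over 8) followed WT replicates 1 and 3, and their medians were 1.03 and 0.58 without both. Scd1, a fat-making desaturase gene, stood at 473, 105 and 1075 CPM in WT and 176, 165 and 128 CPM in KO (-1.77, adjusted p 0.292). No lymphocyte, neutrophil, nerve or hepatocyte marker passed the count filter, the 1 mesothelial marker that did, Upk3b, was at -0.39, and interferon and MHC class I genes had a median of 0.00 over 9.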

How the data were processed

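Values are whole-number read counts per gene and library, deposited by the authors, 1 table per library. Per the submitters' processing notes the build is GRCm38, and the notes name minimap2 2.14 and DESeq2 1.34.0 without saying what each did; the counting rule and strand are not given in the sources used here. Of 55401 gene IDs, 55141 matched GENCODE M21 without their version, which gave names and positions.

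KO was tested against WT on the 6 Input libraries by the quasi-likelihood method of edgeR (version 4.0.16, under R 4.3.3; limma was 3.58.1), each genotype having its own mean. The count filter was filterByExpr at its defaults, a count of 10 and a total of 15, scaling was by TMM, with Benjamini-Hochberg adjustment over 4350 genes and a threshold of 0.05 (common dispersion 0.0308). CPM are TMM-scaled. The SE is the log2 fold change divided by the square root of F. Fold changes are 2 to the power of the fitted log2 fold change. The script was tested on simulated data.

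Named genes were Rpl3l and Rpl3, all genes past the threshold, up to 8 per direction with the smallest p among those not past it with groups apart and a mean of 20 CPM, the called members of each list or the 2 with the smallest p, and a set of heart genes. Other list members with groups apart, and untested genes, were named after their values were seen. A list and a gene that the rule names are not reported here. The members and the 41 lists were chosen with earlier results of these data known, and the airway and hepatocyte lists were added after these libraries were seen.

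Alternatives were DESeq2 size factors and test (DESeq2 1.42.0), library totals, no count filter, 30 counts in 3 libraries, limma-voom, all 12 libraries, the replicate number as a block, thinning to 169359 counts, no globin genes, each library left out, WT and KO replicate 3 left out together and, added later, WT replicates 1 and 3 left out together. A gene at 0 is judged against 3 counts, for counting error only. Promoter windows are from RefSeq (GRCm38.p6), and transcripts were aligned locally.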

Additional observations from a re-analysis of the deposited data

How the results depend on the processing

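The direction of the 10 called genes held in every alternative in which they were tested, with Rpl3l between -2.85 and -2.14 on the log2 scale and past the threshold in all 18. The count of 10 genes (9 higher, 1 lower) became 86 (23 higher, 63 lower) with no count filter, where 15202 genes were tested and 29 of the 63 lower genes peaked in WT replicate 1 and 23 in WT replicate 3. It became 5 (4 higher) with the stricter filter and 4 (3 higher) in thinned libraries, where fewer genes were tested. The lower count was 2 with limma-voom and with all 12 libraries. With WT and KO replicate 3 left out, 5 genes were higher and 2 lower, and with WT replicates 1 and 3 left out 5 were lower. With each library left out the total ran from 1 to 20, higher genes from 0 to 12 and lower genes from 1 to 12, and the log2 fold change of Rpl3 from 0.86 to 0.97. The Rpl3 call was also lost in thinned libraries (0.78) and without WT replicates 1 and 3 (0.86). DESeq2 called 12 genes, 8 of them among the 10, and gave Egr1 an adjusted p of 0.0801. Same-numbered WT and KO libraries were not correlated in their deviations (0.0062, 0.0291 and 0.0019). With 3 libraries per group at low counts this does not settle whether the numbers mark pairs, and the labels do not say. A fit with the replicate block called 12 genes (8 higher, 4 lower), 8 of them among the 10.

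Signs turned for genes that had not passed. Without WT replicates 1 and 3, Scd1 stood at 0.58, Fasn at 0.81, Hbb-bs at 0.80, Hba-a2 at 1.03, Upk3b at 0.88, Scgb1a1 at 0.24 and Ryr2 at -0.11. Without WT and KO replicate 3, Fasn stood at 0.079, Hbb-bs at 0.12, Hba-a2 at 0.067, Upk3b at 0.36, Atp2a2 at -0.13 and Ryr2 at -0.16. With 1 library left out, B2m ran from -0.055 to 0.26, Atp2a2 from -0.10 to 0.17 and Ryr2 from -0.077 to 0.11, and with no count filter Ryr2 stood at -0.018. The cause was not tested. The shallowest library, KO replicate 3, limits genes under 17.7 CPM.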

Other observations

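Some genes outside the pathways above had groups apart with small p-values and did not pass with edgeR. Pam, whose membrane-bound enzyme amidates peptide hormones and is abundant in heart muscle, stood at 720, 779 and 746 CPM in WT and 919, 1275 and 1468 CPM in KO (log2 fold change 0.70, SE 0.17, edgeR adjusted p 0.156), and DESeq2 called it. Thbd, the endothelial thrombin receptor that starts protein C activation, stood at 41.2, 25.1 and 31.0 CPM in WT and 72.5, 77.0 and 101 CPM in KO (1.33, SE 0.33, adjusted p 0.156). Id1, an inhibitor of helix-loop-helix factors downstream of BMP signalling, stood at 59.5, 52.4 and 37.2 CPM in WT and 89.8, 165 and 112 CPM in KO (1.28, SE 0.29, adjusted p 0.109). Anxa3, an annexin gene, had a log2 fold change of 1.57 (adjusted p 0.124). On the lower side, the centrosomal gene Cep68 stood at 45.7, 43.3 and 46.4 CPM in WT and 10.4, 14.0 and 5.34 CPM in KO (-2.07, SE 0.49, adjusted p 0.124). Akap9, a scaffold for protein kinase A, stood at 52.6, 68.3 and 52.6 CPM in WT and 6.91, 24.5 and 21.3 CPM in KO (-1.74, SE 0.44, adjusted p 0.166). The spectrin gene Sptb (-1.28) and the mitochondrial gene Nipsnap2 (-0.64) both had adjusted p 0.201. The groups were apart for all of these.

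Genes near the targeted locus were also compared. Of 20 tested genes within 1 Mb of Rpl3l none passed with edgeR (2 at an unadjusted p under 0.05, Eci1 and Zfp598), and the median log2 fold change was -0.10. In all KO libraries 2 lay above WT and 2 below, against 6.97% and 5.89% of all tested genes. Those adjacent, Rps2 (-0.14), Ndufb10 (0.02) and Msrb1 (0.15), had overlapping groups. Zfp598, whose ubiquitin ligase marks collided ribosomes, stood at 39.8 ± 3.28 CPM in WT and 19.2 ± 2.81 CPM in KO (SD, n = 3; -1.01, SE 0.43, edgeR adjusted p 0.619), and was named after its value was seen.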
